A study of Caenorhabditis elegans with 6 samples.

Results

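Argonautes are the proteins that bind small RNAs and use them to find RNA targets, and in Caenorhabditis elegans many of their own genes are in turn matched by siRNAs. 10 Argonaute genes were followed here as siRNA targets: csr-1, hrde-1, nrde-3, wago-1, wago-4, ppw-1, ppw-2, sago-2, alg-3 and alg-4. They were taken by name from the deposited table of reads aligned to annotated transcripts, which held all 10 among 20222 protein-coding genes. Of these 10, 8 carried enough 22G-RNA reads to be tested, among 2879 tested genes, and 4 carried enough 26G-RNA reads, among 643.

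The libraries were made from whole adult males, 3 from prg-1 null mutants and 3 from wild type. The labels name the mutant only as a null allele, without its lesion. PRG-1 is the Piwi-class Argonaute that binds piRNAs. Each library came from 20 to 30 males pooled, raised at 25 °C and taken 24 h after the middle of the last larval stage. No label says whether replicates came from separate cultures, so p-values measure the spread between these libraries only. In pooled whole animals, fewer cells of a type and less RNA per cell cannot be told apart.

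22G-RNAs are secondary siRNAs, copied from a target transcript by RNA-dependent RNA polymerases and bound by worm-specific Argonautes (WAGOs) or by CSR-1. 26G-RNAs are primary siRNAs that depend on Dicer and the polymerase RRF-3. In the spermatogenic germline they are bound by ALG-3 and ALG-4 and start the making of 22G-RNAs on their targets. Here a 22G-RNA read is an antisense read of 21 to 23 nt starting with G, and a 26G-RNA read is an antisense read of 26 nt starting with G. Each gene is represented by the isoform with the highest mean.

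The 22G-RNA reads on all protein-coding genes, counted over all isoforms, ran from 176078 to 378138 in the prg-1 null libraries and from 70387 to 309541 in the wild type libraries. The 26G-RNA reads ran from 18012 to 33318 in prg-1 null and from 7042 to 41833 in wild type. Both classes were shallowest in the third library of wild type, and the values that moved most without it are given beside the result. Levels are CPM, counts per 1000000 reads of the same class on the tested genes after TMM scaling. 3 reads over a genotype correspond to 4.13 CPM of 22G-RNA in the prg-1 null group and 7.26 CPM in the wild type group. 22G-RNA reads on the mutated gene itself numbered 7, 15 and 9 in prg-1 null, against 143, 441 and 88 in wild type. Sperm marker genes carried 26G-RNAs in every library, at 122 to 217 in prg-1 null and 79.4 to 358 in wild type per 1000000 genome-aligned reads. The same 12 markers carried 22G-RNAs at 781 to 1170 in prg-1 null and 96.7 to 175 in wild type. For 10 oocyte and eggshell genes 26G-RNAs stood at 0 to 4.84 in prg-1 null and 0 to 1.44 in wild type. No 26G-RNA read fell on the intestine and muscle markers. 22G-RNAs on the intestine markers stood at 0 to 1.07 in prg-1 null and 0 to 1.23 in wild type. On the muscle markers they stood at 0 to 15.9 in prg-1 null and 1.44 to 5.56 in wild type. The part of these differences in the results below was not tested.

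In 22G-RNA level hrde-1 alone among the tested genes passed the test, a call that several alternatives below did not keep. hrde-1 fell in prg-1 null, wago-1 stood higher in every prg-1 null library without passing the test, and the other 6 tested genes did not pass in either direction. Of the 8 tested genes 1 was called lower and 0 higher by edgeR's quasi-likelihood test at a Benjamini-Hochberg threshold of 0.05, with 2 at an unadjusted p under 0.05. Over all 2879 tested genes 32.6% were called lower and 12.4% higher, so the family's counts did not exceed that background. The median log2 fold change of the 8 genes was 0.18, and that of all tested genes was -0.11.

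**Figure D1:**
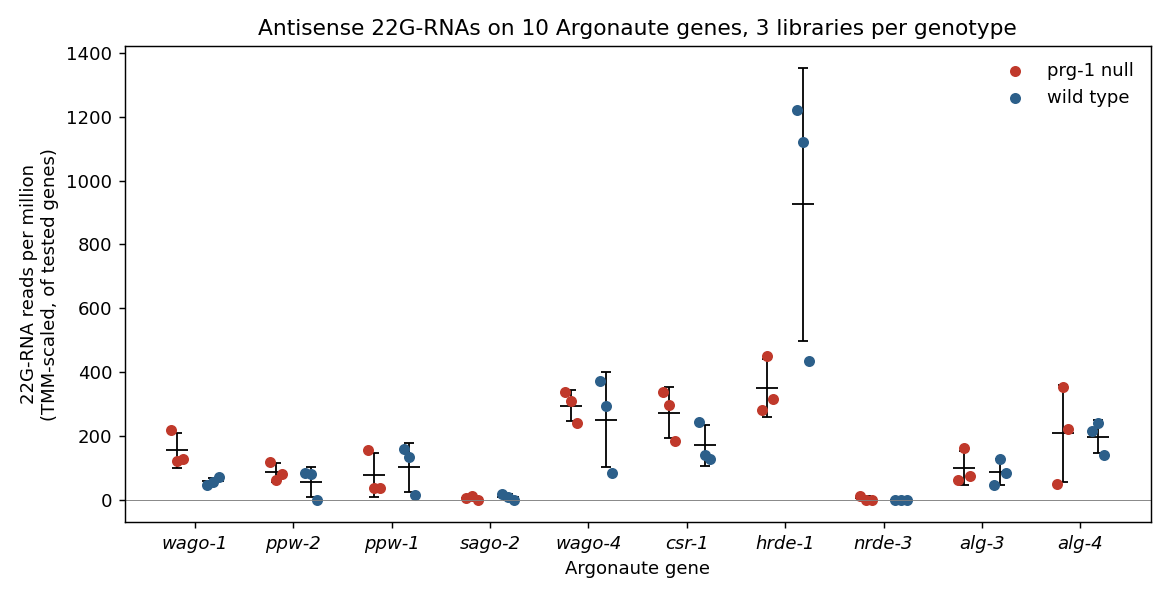
22G-RNA reads per 1000000 (CPM, vertical axis) on each of the 10 Argonaute genes (horizontal axis). Points are libraries, prg-1 null in red to the left and wild type in blue to the right, and black marks give the mean and SD of 3 libraries. The hrde-1 libraries spread from 280 to 452 in prg-1 null and from 434 to 1221 in wild type, and the 3 wago-1 libraries of prg-1 null lie above the 3 of wild type.

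hrde-1 (WBGene00007624) encodes the nuclear Argonaute of the germline that carries inherited silencing. It lies on the minus strand of chromosome III, at 4172337 to 4176159 in WBcel235, and has 1 annotated transcript of 3537 bases. Its 22G-RNAs stood at 280, 452 and 317 CPM in the prg-1 null libraries, against 1221, 1122 and 434 CPM in the wild type libraries. The first and second wild type libraries lay far above every prg-1 null library, while the third lay just under the highest of them, so the groups overlapped. Behind these levels were 45, 120 and 95 reads in prg-1 null and 131, 263 and 31 reads in wild type. The mean was 349.6 ± 90.3 CPM in prg-1 null males and 926 ± 429 CPM in wild type males (SD, n = 3 each). That is a log2 fold change of -1.41 ± 0.44 (SE; edgeR adjusted p = 0.00969). The call was lost when the first or the second wild type library was left out (log2 fold change -1.17, edgeR adjusted p = 0.0895, and -1.24, adjusted p = 0.0801). With the third wild type library left out, the shallowest, it was -1.73 (adjusted p = 0.00185). Scaled to genome-aligned reads, which moves the median of all tested genes to 0.45, it was -0.84 and was not called (adjusted p = 0.185). With antisense reads of any length and first base it was -0.58 and was not called either (edgeR adjusted p = 0.289).

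wago-1 (WBGene00011061) encodes a germline Argonaute that silences transposons, pseudogenes and some genes. It lies on the plus strand of chromosome I, at 7235371 to 7238790. Its 22G-RNAs stood at 218, 120.5 and 127 CPM in prg-1 null, against 46.6, 55.5 and 69.98 CPM in wild type. Every prg-1 null library was above every wild type library, which no other member showed on this scale. Of all tested genes 20.7% had each prg-1 null library above each wild type library and 34.4% had each of them below. The difference was 1.43 on the log2 scale (SE 0.62) and did not pass over all genes (edgeR adjusted p = 0.0675). It passed when scaled to genome-aligned reads (log2 fold change 2.00, adjusted p = 0.0208) and with antisense reads of any length and first base (1.40, adjusted p = 0.0192). It was 0.58 (adjusted p = 0.531) with 22-nt reads alone.

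The length of the wago-1 reads bears on that last value. Reads of 21 nt starting with G numbered 15, 10 and 17 in the prg-1 null libraries, against 0, 1 and 0 in the wild type libraries. They made up 42.9%, 31.2% and 44.7% of wago-1's 22G-RNA reads in prg-1 null, against 0%, 7.69% and 0% in wild type, where 5, 13 and 5 reads stood behind the shares. Over all protein-coding genes the 21-nt share was 21.8% to 23.7% in prg-1 null and 18% to 20.7% in wild type. On wago-4 the share was 38.9%, 32.9% and 27.8% in prg-1 null, against 12.5%, 29.0% and 0% in wild type. On alg-3 it was 40.0%, 48.8% and 40.9% against 40.0%, 26.7% and 0%. On hrde-1 it was 20.0%, 24.2% and 37.9% against 25.2%, 23.2% and 16.1%. The third wild type library, the shallowest, had such 21-nt reads on no member but hrde-1. How many of all genes are separated as wago-1 is was not computed. This split by length was looked at after the values were seen and was given no test.

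Among the other cytoplasmic WAGOs of the germline, 22G-RNA CPM overlapped between the genotypes. wago-4 (chromosome II, 12919551 to 12923377), whose protein acts in inheritance of RNA interference, stood at 336, 309 and 240.2 CPM in prg-1 null, against 373, 294 and 83.98 CPM in wild type. Its libraries overlapped, with the third wild type library the lowest of the 6 (log2 fold change 0.19 ± 0.50, SE; edgeR adjusted p = 0.794). With that library left out the log2 fold change of wago-4 was -0.17 (edgeR adjusted p = 0.834). ppw-2 (chromosome I, 5158511 to 5162231), which encodes WAGO-3, stood at 118, 60.2 and 80.1 CPM in prg-1 null, against 83.9, 81.1 and 0 CPM in wild type. Apart from that library without a read, the ppw-2 values of the genotypes lay in the same range (log2 fold change 0.49 ± 0.74, SE; edgeR adjusted p = 0.641), and with that library left out the log2 fold change was 0.054.

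ppw-1 (chromosome I, 4185060 to 4189928) is needed for the germline to respond to double-stranded RNA taken up from food. It stood at 156, 37.6 and 36.7 CPM in prg-1 null, against 158, 132 and 14 CPM in wild type, so that within each genotype the libraries differed more than the genotypes did (log2 fold change -0.54 ± 0.74, SE; edgeR adjusted p = 0.607). Leaving out the first prg-1 null library gave -1.50 (edgeR adjusted p = 0.149) and leaving out the third wild type library -0.98 (adjusted p = 0.303). sago-2 (chromosome I, 618160 to 621490), another secondary Argonaute, had too few reads to test, with 1, 3 and 0 in prg-1 null and 2, 2 and 0 in wild type. It lies within the span of eme-1 on the opposite strand, so reads antisense to sago-2 run in the sense direction of eme-1.

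csr-1 (WBGene00017641; chromosome IV, 7957580 to 7962050) encodes the essential Argonaute whose 22G-RNAs match genes expressed in the germline. In the Ensembl annotation it overlaps frpr-10 on the same strand, so reads there could belong to either. Its own 22G-RNAs stood at 336, 297 and 183 CPM in prg-1 null, against 242, 141 and 126 CPM in wild type. The lowest prg-1 null library lay between the first and second wild type libraries, and the difference did not pass (log2 fold change 0.67 ± 0.49, SE; edgeR adjusted p = 0.300). Scaled to genome-aligned reads all 3 prg-1 null libraries were higher, at 59.8, 54.6 and 29.4 against 24.1, 20.3 and 13.0 per 1000000, without a call (log2 fold change 1.30, edgeR adjusted p = 0.0724). That scale moves the median log2 fold change of all tested genes to 0.45. The share of all genes separated in this way on it was not computed.

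nrde-3 (chromosome X, 372235 to 376900), whose protein carries siRNAs into the nuclei of somatic cells, was almost bare of siRNAs. 2 reads of 22G-RNA were found in the first prg-1 null library and none in the other 5. Neither nrde-3 nor sago-2 had a 26G-RNA read in any library. Antisense reads of any kind on nrde-3 numbered 8 in prg-1 null and 6 in wild type, so no difference was detectable at this depth.

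alg-3 and alg-4 are close relatives whose proteins bind 26G-RNAs during spermatogenesis. Reads from stretches that both genes share could be counted on either, and their values are uncertain to that extent. 22G-RNAs on alg-3 (chromosome IV, 11704365 to 11708264) stood at 62.3, 162 and 73.4 CPM in prg-1 null, against 46.6, 128 and 83.98 CPM in wild type. Those on alg-4 (chromosome III, 9887210 to 9891458) stood at 49.8, 354 and 220.2 CPM in prg-1 null, against 214, 239 and 139.97 CPM in wild type. For both genes the second library of each genotype was the highest and the genotypes overlapped. Neither passed (log2 fold change 0.17 ± 0.64 for alg-3 and 0.07 ± 0.56 for alg-4, SE; edgeR adjusted p = 0.867 and 0.939).

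Per length of transcript, hrde-1 was the richest target of the family in both genotypes, at 98.8 ± 25.5 CPM per 1000 bases in prg-1 null and 262 ± 121 in wild type (SD, n = 3). In wild type each hrde-1 library (123 to 345) lay above each library of wago-4, the next gene in the order (24.9 to 111). In prg-1 null the hrde-1 libraries (79.2 to 128) overlapped those of wago-4 (71.3 to 99.8). In prg-1 null the order went on through wago-4, csr-1, alg-4, wago-1, alg-3, ppw-2 and ppw-1, each overlapping the next, and a gap separated ppw-1 from sago-2. In wild type it went on through wago-4, alg-4, csr-1, ppw-1, alg-3, wago-1 and ppw-2, again with overlap at each step. sago-2 and nrde-3 came last in both, at 2.02 and 1.21 in prg-1 null and 3.13 and 0 in wild type. Over all tested genes, without regard to length, the mean CPM of hrde-1 was at the 89.5th percentile and that of ppw-2 at the 32.4th.

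The 22G-RNA reads of all 10 genes together made 1552 ± 264 CPM in prg-1 null males and 1853 ± 787 CPM in wild type males (SD, n = 3; exact two-sided permutation p = 0.6, where 0.1 is the smallest possible). Without hrde-1 the sum was 1202 ± 211 CPM in prg-1 null males and 927 ± 358 CPM in wild type males (exact permutation p = 0.4). The direction of the sum thus turned without hrde-1, and it turned as well with hrde-1 kept when scaled to genome-aligned reads (log2 ratio 0.32, against -0.26 on the CPM scale). With the third wild type library left out, the shallowest, the log2 ratio on the CPM scale was -0.57. The sum of all 10 genes in wild type was then 2303 ± 143 CPM (SD).

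The 26G-RNAs set 4 of the genes apart from the rest. alg-4, hrde-1, alg-3 and csr-1 had 188, 148, 57 and 45 reads of 26G-RNA over the 6 libraries. wago-1 had 8, ppw-1 had 4, and ppw-2 and wago-4 had 3 each. The 22G-RNA counts were ordered otherwise: wago-4, with 323 reads of 22G-RNA, had more of them than alg-4, with 257. Per length of transcript the 26G-RNA order in prg-1 null was hrde-1, alg-4, csr-1 and alg-3, at 555, 398, 160 and 134 CPM per 1000 bases, and only alg-4 and csr-1 did not overlap as neighbours. In wild type it was alg-4, hrde-1, alg-3 and csr-1, at 528, 147, 98 and 39.4, and only alg-4 and hrde-1 did not overlap.

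**Figure D2:**
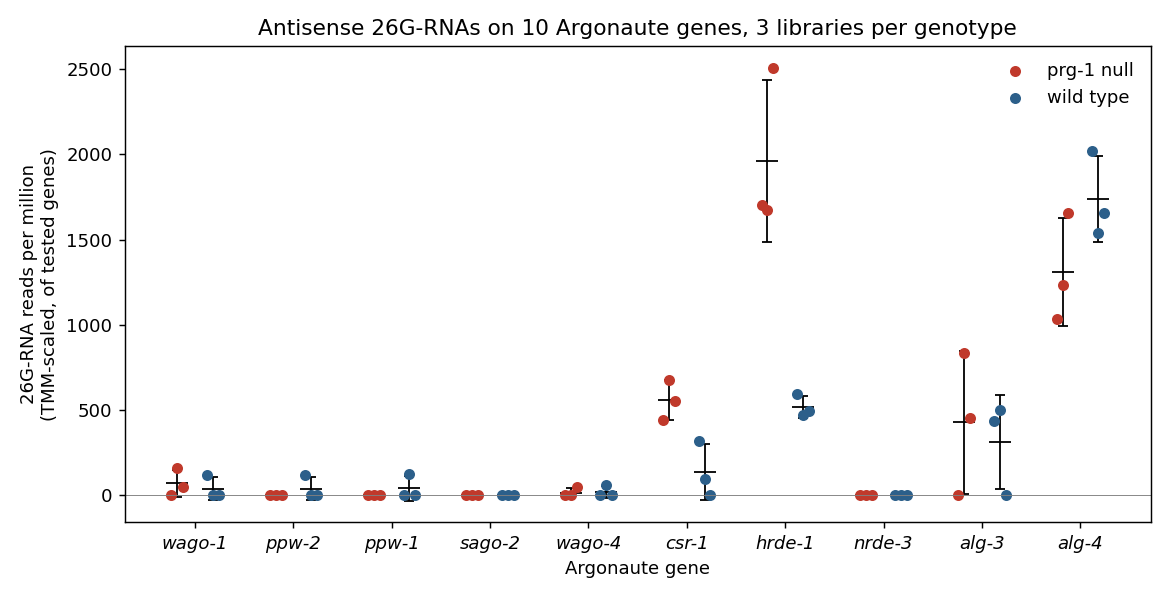
26G-RNA reads per 1000000 (CPM, vertical axis) on each of the 10 Argonaute genes (horizontal axis), with prg-1 null libraries in red to the left and wild type libraries in blue to the right, and the mean and SD in black. On hrde-1 the 3 prg-1 null libraries lie at 1671 to 2509 and the 3 wild type libraries at 471 to 594, and 6 of the 10 genes stay near 0.

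On hrde-1 the 26G-RNAs stood at 1704, 1671 and 2509 CPM in prg-1 null, against 594, 471 and 496 CPM in wild type. All 3 prg-1 null libraries were well above all 3 wild type libraries. Among the 643 genes tested for 26G-RNA this was so for 11.7%, and the opposite held for 8.09%. The reads behind them were few, at 23, 42 and 50 in prg-1 null and 15, 15 and 3 in wild type. The mean was 3.77-fold higher in prg-1 null, with a log2 fold change of 1.89 ± 0.55 (SE). This missed the threshold over all tested genes (edgeR adjusted p = 0.0626). DESeq2 called it (log2 fold change 1.91, adjusted p = 0.0282), as did edgeR without the third wild type library (1.88, adjusted p = 0.0209). Per 1000000 genome-aligned reads the libraries stood at 25.5, 29.0 and 26.8 in prg-1 null, against 13.9, 9.23 and 4.33 in wild type, again without overlap (exact two-sided permutation p = 0.1, the smallest possible). On that scale the fitted log2 fold change was 1.53 (edgeR adjusted p = 0.886), and the median of all tested genes was -0.25. The share of all genes without overlap on it was not computed.

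On csr-1 26G-RNAs stood at 445, 676 and 552 CPM in prg-1 null, against 317, 94.3 and 0 CPM in wild type. The prg-1 null libraries lay above the wild type libraries on this scale, but with 6, 17 and 11 reads against 8, 3 and 0 the difference did not pass (log2 fold change 1.71 ± 0.87, SE; edgeR adjusted p = 0.507). It was 2.82 when the first wild type library was left out (edgeR adjusted p = 0.479) and 1.47 when the third was (adjusted p = 0.43), and csr-1 had too few reads to test without the second prg-1 null library. Per 1000000 genome-aligned reads they overlapped.

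alg-4 carried 26G-RNAs at 1037, 1233 and 1656 CPM in prg-1 null, against 2021, 1540 and 1654 CPM in wild type, with the third library of each genotype nearly equal. alg-3 carried them at 0, 836 and 452 CPM in prg-1 null, against 436, 503 and 0 CPM in wild type, so that each genotype had a library without a read. Neither gene passed (log2 fold change -0.41 ± 0.48 for alg-4 and 0.28 ± 0.87 for alg-3, SE; edgeR adjusted p = 0.806 and 0.945). Of the 4 genes tested for 26G-RNA 0 were called by edgeR in either direction, with 1 at an unadjusted p under 0.05 and 1 called by DESeq2. Over all 643 tested genes 0.467% were called lower and 1.71% higher.

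**Figure D3:**
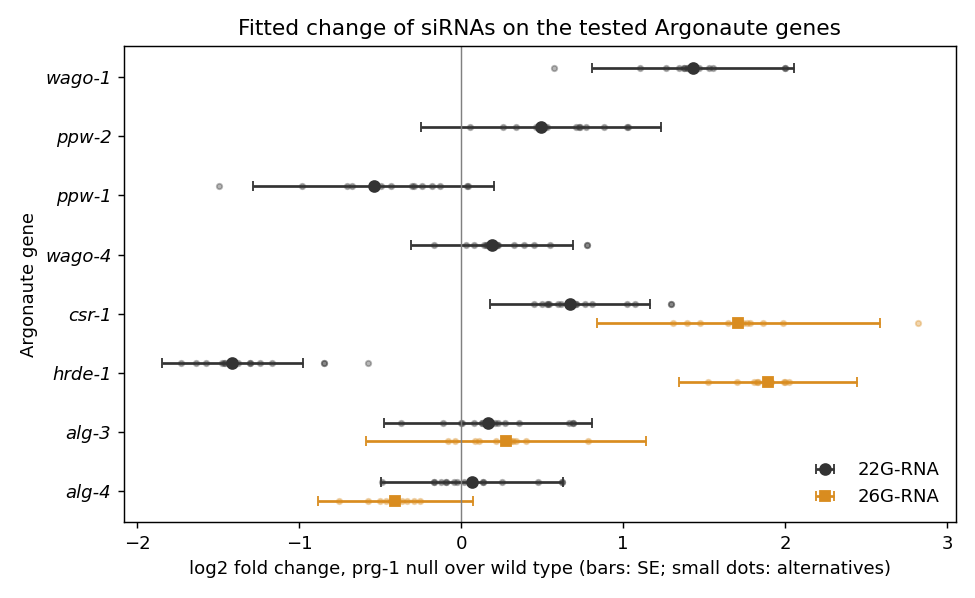
Fitted log2 fold change, prg-1 null over wild type (horizontal axis), of 22G-RNAs (black circles) and 26G-RNAs (orange squares) on the tested Argonaute genes, with the SE as bars and the value under each alternative setting as small dots. For hrde-1 the values for 22G-RNA lie below 0 and those for 26G-RNA above 0 under each alternative run, at -1.41 and 1.89 in the main comparison.

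The balance of both classes on a gene can be read within a library, where the scaling between libraries cancels. 26G-RNA reads on hrde-1 were 33.8%, 25.9% and 34.5% of its 22G-RNA and 26G-RNA reads in the prg-1 null libraries. In the wild type libraries they were 10.3%, 5.40% and 8.82%. The exact 95% binomial interval for the lowest prg-1 null library ran from 19.4% to 33.4%, and that for the deepest wild type library from 3.05% to 8.74%. That for the third wild type library, with 34 reads, was wide, from 1.86% to 23.7%. The mean was 31.4% ± 4.76 in prg-1 null and 8.16% ± 2.51 in wild type (SD, n = 3 each; exact two-sided permutation p = 0.1, the smallest possible). This share was computed after the levels had been seen.

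Over all protein-coding genes the same share leaned the other way, at 9.28%, 10.2% and 6.71% in prg-1 null, against 22.5%, 11.9% and 9.09% in wild type. The groups overlapped there, as the third wild type library lay below the first and second prg-1 null libraries. Per gene, 366 genes had at least 10 such reads in each library and at least 10 of 26G-RNA in all. In 7.38% of these all prg-1 null libraries had a higher share than all wild type libraries, as hrde-1 did, and in 27.0% all had a lower one. On alg-4 the share was 63.6%, 24.8% and 33.3% in prg-1 null, against 68.9%, 46.7% and 50.0% in wild type, and the groups overlapped (exact permutation p = 0.4). On csr-1 it was 10%, 17.7% and 16.7% in prg-1 null, against 23.5%, 8.33% and 0% in wild type (exact permutation p = 0.6). wago-4 had 1 read of 26G-RNA beside 208 of 22G-RNA in the prg-1 null libraries together, and 2 beside 115 in the wild type libraries.

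**Figure D4:**
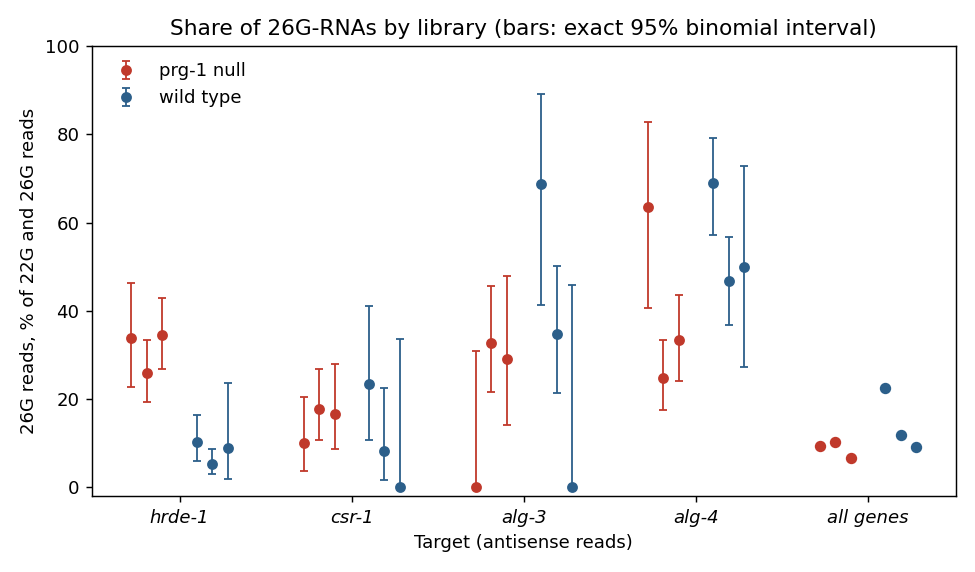
26G-RNA reads as a percentage of 22G-RNA and 26G-RNA reads (vertical axis) on hrde-1, csr-1, alg-3, alg-4 and all protein-coding genes, one point per library, prg-1 null in red to the left and wild type in blue to the right. Exact 95% binomial intervals are drawn for the single genes and not for all protein-coding genes. The hrde-1 points lie at 25.9% to 34.5% in prg-1 null and 5.40% to 10.3% in wild type, while the points for the other 3 genes overlap between genotypes.

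The lengths of all antisense reads starting with G, which include the same reads, gave a like picture on hrde-1. Of its reads of 18 to 30 nt, 29.1%, 20.1% and 27.2% were 26 nt long in prg-1 null, against 7.98%, 4.81% and 6.98% in wild type. On alg-4 it was 23.7%, 18.1% and 27% in prg-1 null, against 50.0%, 29.9% and 40.0% in wild type. The first of these prg-1 null values was lowered by 22 reads of 20 nt, 37.3% of that library's reads on alg-4, where the other 5 libraries had 0 to 3 reads of that length. Reads of 27 nt starting with G numbered 0, 10 and 1 on alg-4 in prg-1 null, against 4, 28 and 0 in wild type, most of them in the second library of each genotype.

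**Figure D5:**
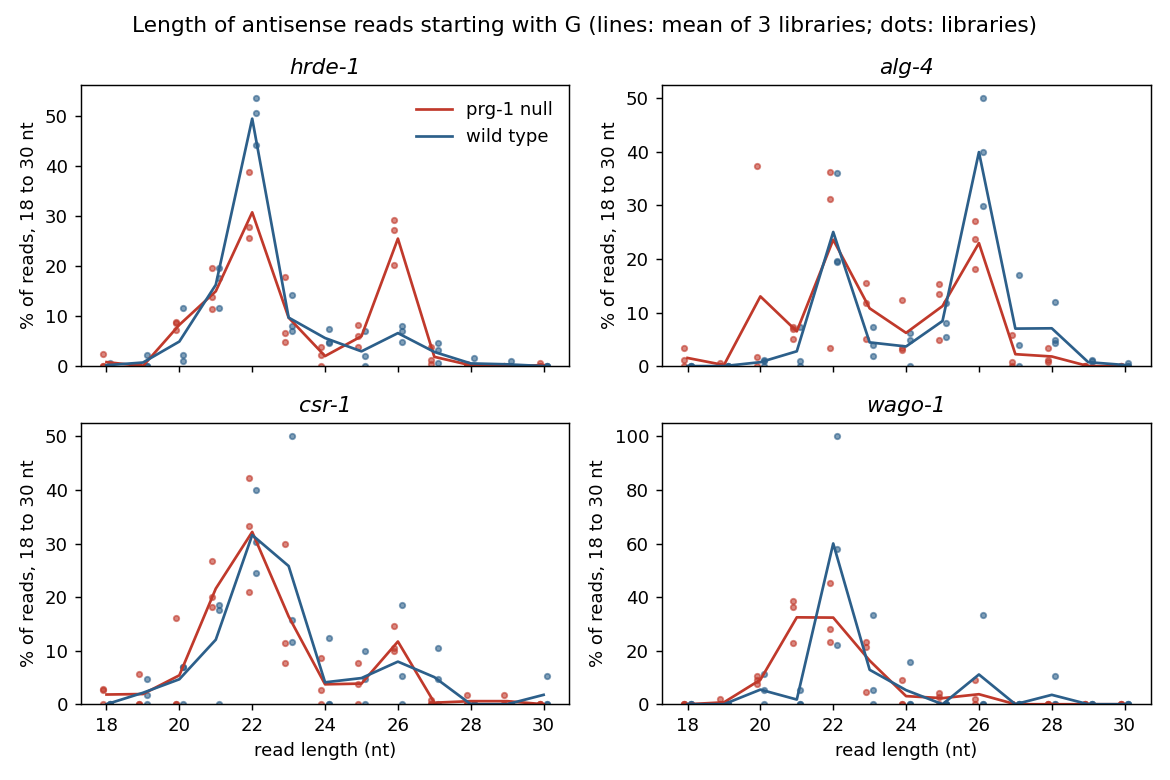
Length in nt (horizontal axis) of antisense reads starting with G on hrde-1, alg-4, csr-1 and wago-1, as a percentage of such reads of 18 to 30 nt (vertical axis). Lines are means of 3 libraries and dots single libraries, prg-1 null in red and wild type in blue. At 26 nt hrde-1 has 20.1% to 29.1% in prg-1 null and 4.81% to 7.98% in wild type, and at 21 nt wago-1 has 22.7% to 38.5% in prg-1 null and 0% to 5.26% in wild type.

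Antisense reads of 21 to 23 nt starting with A, in place of G, were also found on most of the genes. On wago-1 these were 26.9% of 208 antisense reads in prg-1 null and 33.9% of 56 in wild type. On csr-1 they were 22.2% of 401 in prg-1 null and 13.6% of 140 in wild type. Summed over reads of every kind, antisense reads on hrde-1 numbered 615 in prg-1 null and 650 in wild type, of which 42.3% and 65.4% were 22G-RNAs.

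Reads in the sense direction were few on these genes, with hrde-1 as the exception. The other 9 genes had between 0 and 56 sense reads over the 6 libraries, and hrde-1 had 989. Of these, 870 (88.0%) were 21 to 23 nt long and started with A, and 547 were exactly 22 nt. Among 188 genes with at least 300 sense reads, leaving out rbd-1 and daf-15, whose sense reads dominate the libraries, the median share of such reads was 1.64%, and 11 genes reached the share of hrde-1 or more, hrde-1 included. The annotation used here lists no other gene, and no small RNA locus, within hrde-1. How reads that match several places were counted is not stated, so these reads may belong elsewhere too. Per 1000000 genome-aligned reads they stood at 176, 114 and 136 in prg-1 null, against 39.9, 121 and 75.1 in wild type, and the groups overlapped (exact two-sided permutation p = 0.2). On wago-1, by contrast, 43 of 52 sense reads were of 21 to 23 nt and started with T (U in the RNA). A piRNA locus on the same strand runs from 7235352 to 7235372 on chromosome I in the annotation. The wago-1 transcript begins at 7235371, so only the last bases of that locus lie within it. Sense reads on wago-1 numbered 9, 14 and 9 in prg-1 null, against 5, 6 and 9 in wild type. The part of the locus in these reads was not tested. On alg-3 sense reads numbered only 1, 3 and 2 in prg-1 null, against 7, 10 and 4 in wild type. Per 1000000 genome-aligned reads each wild type library was above each prg-1 null library (exact two-sided permutation p = 0.1, the smallest possible). How many of all genes are separated in this way was not computed.

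The genes whose 22G-RNA profile over the 6 libraries was most like that of a family member were found by Euclidean distance in log2(CPM + 1). For hrde-1 these were enu-3.2 and F36H12.9, at distances of 1.25 and 1.27. For wago-1 they were rps-22 and vbh-1 (0.81 and 0.85), and for csr-1 rig-4 and Y57A10B.7 (0.63 and 0.80). wago-4 was nearest to tfg-1 and C33F10.8, ppw-1 to dpy-21 and abce-1, and ppw-2 to dnj-28 and act-1. alg-3 was nearest to ile-1 and F14F7.4, and alg-4 to W03A5.1 and the sperm-enriched gene ssq-1. With 6 libraries this describes level and genotype difference together.

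Other genes of the siRNA pathways were followed as targets of secondary siRNAs. They came from 4 lists, which together held 54 genes, 26 of them tested. The levels, falls and rises given for them are of these antisense reads on each gene, as for the members above. The levels of the transcripts themselves were not measured. Of the 26, 9 fell (34.6%, beside 32.6% of all tested genes) and 1 rose (3.85%, beside 12.4%). The mutated gene prg-1 is included in the 9. Among 12 other Argonaute genes 3 were tested, and prg-1 itself was the 1 that fell. For comparison, ergo-1, the Argonaute of 26G-RNAs in oocytes and embryos, stood at 200.3 ± 38.9 CPM in prg-1 null males and 267 ± 99.0 CPM in wild type males (edgeR adjusted p = 0.50). wago-10 stood at 160 ± 52.7 CPM in prg-1 null males and 98.5 ± 31.5 CPM in wild type males (edgeR adjusted p = 0.41).

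Of 9 genes for 26G-RNA production 3 were tested and 2 fell in the level of secondary siRNAs on them. rde-4, the double-stranded RNA binding partner of Dicer, stood at 27 ± 18.4 CPM in prg-1 null males and 312 ± 150 CPM in wild type males (log2 fold change -3.44 ± 0.62, SE; edgeR adjusted p = 6.3e-05). eri-3, a cofactor in the same complex, stood at 21.1 ± 5.29 CPM in prg-1 null males and 87.0 ± 26.8 CPM in wild type males (-2.06 ± 0.75; edgeR adjusted p = 0.028). The remaining tested gene of the list, dcr-1, which encodes Dicer, had a log2 fold change of 0.08 ± 0.52 (SE; edgeR adjusted p = 0.92).

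Of 15 germ granule and nuclear RNAi partners 12 were tested, and in the level of secondary siRNAs on them 4 fell and 1 rose. nrde-1, a factor that acts with HRDE-1 and NRDE-3 on chromatin, stood at 26.1 ± 16.3 CPM in prg-1 null males and 387 ± 143 CPM in wild type males (log2 fold change -3.96 ± 0.60, SE; edgeR adjusted p = 7.0e-06). glh-1, a germ granule helicase, stood at 142 ± 48.4 CPM in prg-1 null males and 1127 ± 515 CPM in wild type males (-3.02 ± 0.47; edgeR adjusted p = 1.1e-05). The gene that rose was Y48G1C.1, which RefSeq names pid-2, a gene with a role in piRNA-dependent silencing, with 9089, 8884 and 12029 CPM in the prg-1 null libraries against 196, 145 and 252 CPM in the wild type libraries (log2 fold change 5.71 ± 0.35, SE; edgeR adjusted p = 1.5e-11). The other 2 that fell were T10B11.7 and C06A5.6. Of 20 siRNA amplification genes 8 were tested, and in the same measure 2 fell and none rose. rrf-2, one of the RNA-dependent RNA polymerase genes, stood at 41.9 ± 39.5 CPM in prg-1 null males and 257 ± 84.4 CPM in wild type males (-2.73 ± 0.65; edgeR adjusted p = 0.0011). rde-11, which acts in the amplification of siRNAs, stood lower still, at 10.7 ± 10.4 CPM in prg-1 null libraries and 664 ± 151 CPM in wild type libraries (-5.84 ± 0.64; edgeR adjusted p = 7.5e-08). For 26G-RNA only 4 genes of the lists, all germ granule and nuclear RNAi partners, had enough reads to test, and 0 were called by edgeR.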

How the data were processed

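Per the labels' protocols, small RNA was treated with an acid pyrophosphatase, so that RNAs with a 5′ triphosphate could be cloned. The submitters' processing notes name cutadapt 3.7 and FastQC 0.12.0, with WBcel235 as the genome. No source used here names the aligner or says how multiply mapping reads were shared, so paralogs are uncertain and the values deposited by the authors were given the unit of expected counts. All were whole numbers of reads per transcript, sense and antisense apart, so rounding changed nothing. Each came with a deposited list of reads by length and first base, which gave the read classes.

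All protein-coding genes were fitted with edgeR 4.0.16 (R 4.3.3) after filterByExpr and TMM, with genotype as the only term, separately for 22G-RNAs and 26G-RNAs. Adjusted p-values are Benjamini-Hochberg over all tested genes. Tested on simulated data, the 22G fit recovered 60.4% of changes of 2 on the log2 scale and 100% of changes of 4 over 2895 genes. The 26G fit recovered 81.8% and 100% over 653 genes. In the simulation all genes shared the same dispersion, and rises and falls were about equally many. These rates are therefore not the power for a given gene in these data. Single values were compared by exact two-sided permutation tests over libraries (scipy 1.17.1). Binomial intervals are exact and, like floors of 3 counts, cover counting error only, as reads carry no molecular identifiers. Genome-aligned scaling used reads aligned to the genome without the sense reads of rbd-1 and daf-15. Replicate numbers did not pair the libraries. Named genes are the 10 members, prg-1, up to 3 called genes per pathway list by size of change, and 2 nearest genes per tested member. dcr-1, ergo-1, wago-10, T10B11.7 and C06A5.6 were named outside that rule, after their values were seen, as were rbd-1 and daf-15. The members and lists were chosen with earlier results of these data known. Alternatives were DESeq2 1.42.0, other scalings and filters, a replicate block, summed isoforms, other read classes and leaving out each library.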

Additional observations from a re-analysis of the deposited data

How the results depend on the processing

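The count of Argonaute genes with fewer 22G-RNAs, 1 in the main comparison, was 0 with a replicate block, with all antisense reads and with genome-aligned scaling on the same genes or with the filter run again, and ran from 0 to 1 when each library was left out. The count with more, 0 in the main comparison, was 1 with all antisense reads and with either genome-aligned scaling, in each case wago-1. For 26G-RNAs the count with more was 1 with DESeq2 and ran from 0 to 1 when a library was left out, in each case hrde-1. With the replicate block the log2 fold change of hrde-1 was -1.30 for 22G-RNA (edgeR adjusted p = 0.0579) and 1.83 for 26G-RNA (0.210). Same-numbered libraries did not deviate together (r of -0.03, 0.042 and 0.002), and the block called 0 and 7 genes lower and higher for 26G-RNA in place of 3 and 11, and the cause was not tested. Over 16 alternatives the 22G-RNA log2 fold change of hrde-1 ran from -1.73 to -0.58 (adjusted p from 0.00185 to 0.289) and that of wago-1 from 0.58 to 2.00 (0.019 to 0.531). For hrde-1 26G-RNA it ran from 1.53 to 2.02 (0.0209 to 0.886). Genome-aligned scaling gave 569 genes higher for 22G-RNA in place of 357, and 0 lower and 3 higher for 26G-RNA. Leaving out a library gave 1 to 9 lower and 7 to 19 higher for 26G-RNA.

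Small changes turned their sign, none of them called. For 22G-RNA, alg-4 was -0.028 with DESeq2, -0.096 with at least 10 reads in 3 libraries, -0.17 with the block, -0.13 with 22-nt reads alone, -0.17 with all antisense reads, and -0.49 to 0.47 over the fits that left out a library. Over those fits alg-3 ran from -0.37 to 0.67 and wago-4 from -0.17 to 0.55, and ppw-1 was 0.040 and 0.035 with either genome-aligned scaling. For 26G-RNA, alg-3 was -0.081 with genome-aligned scaling and ran from -0.036 (without the third wild type library) to 0.78 when a library was left out, with no value when the second library of either genotype was. The log2 ratio of the summed 22G-RNAs, -0.26, was 0.32 with genome-aligned scaling and 0.38 without hrde-1, and -0.57 to -0.02 when a library was left out. The difference in the 26G share of hrde-1, 23.2 percentage points, was 33.8 against 22-nt reads alone and 23.3 with reads of 26 nt give or take 1, and 21.7 to 26 when a library was left out. These last alternatives and summed isoforms for 26G-RNA were chosen after seeing the data. The number of pathway genes called, 10, ran from 8 to 12. Depth limits the 26G-RNA results, since 3 reads in the third wild type library are worth 496 CPM.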
